A study of Mus musculus with 14 samples.

Results

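Smooth muscle cells of an artery wall shorten through a shared set of contractile proteins, and 10 of their genes were followed here through a count table of 46095 gene symbols. The set was Acta2, Actg2, Myh11, Myl9, Mylk, Tagln, Cnn1, Smtn, Lmod1 and Des, taken by symbol alone, and all 10 were in the table and passed the low-count filter that left 17693 genes. Arteries of 14 C57BL/6 mice, 8 weeks old, were sequenced, all of them the superior mesenteric artery (SMA) that feeds the gut. Under normal conditions there were 3 WT mice (Drp1 +/+) and 4 Drp1 KO mice, and after ischemia there were 3 WT and 4 KO mice. Drp1 is the protein of the Dnm1l gene and cuts mitochondria. The labels write the KO genotype as Drp1 flox/+, while the study's methods describe a whole-body heterozygous line made by CRISPR/Cas9 at exon 2, since the homozygous loss is lethal in the embryo. Whether a Cre was present is not stated. Ischemia was blood loss through the femoral artery before the artery was taken, so the SMA itself was not tied off. The labels of the ischemic mice give 2 h, and the study's text gives a longer period. The question for these genes was whether ischemia, Drp1 loss or both together moved their RNA in the artery wall.

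The 10 genes divide by role. Acta2 and Actg2 encode the smooth muscle actins, the thin filament on which the motor pulls. Myh11 encodes the smooth muscle myosin heavy chain, Myl9 its regulatory light chain, and Mylk the kinase that phosphorylates this light chain when calcium and calmodulin rise. Tagln, Cnn1, Smtn and Lmod1 encode transgelin, calponin, smoothelin and leiomodin, which bind or build the actin filament. Des encodes desmin, an intermediate filament that ties dense bodies together and that heart and skeletal muscle also use. Most of these genes are known targets of serum response factor, which binds the CArG box (CC, 6 bases of A or T, GG) together with its co-factor myocardin. Loss of their RNA is the usual mark of a smooth muscle cell that leaves the contractile state.

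The CArG box was looked for in the 250 bases before the RefSeq start of each gene (build GRCm38.p6), and 7 members had such a sequence (Acta2, Cnn1, Smtn, Des, Lmod1, Mylk and Myl9). The box reads the same on both strands. An exact box stood in 1 of the 7, Myl9, and a box with 1 inner base changed to C or G stood in 2, Acta2 and Myl9. Across all 32851 mouse promoters of the table, 1.47% held an exact box and 7.24% a changed one. The letters are shown because these are the members whose start region carries the element, with the boxes in capitals. Acta2 lies on chromosome 19 on the minus strand, and 30 bases around each of its boxes are given, from chr19:34255438-34255467 and chr19:34255388-34255417. Both stretches lie inside the first exon that GENCODE M21 gives to a longer Acta2 transcript. Myl9 lies on chromosome 2 on the plus strand, and chr2:156775214-156775419 is given, which stops where its first GENCODE exon begins.

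Acta2 first site: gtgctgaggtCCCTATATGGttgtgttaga

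Acta2 second site: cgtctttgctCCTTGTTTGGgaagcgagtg

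Myl9 upstream: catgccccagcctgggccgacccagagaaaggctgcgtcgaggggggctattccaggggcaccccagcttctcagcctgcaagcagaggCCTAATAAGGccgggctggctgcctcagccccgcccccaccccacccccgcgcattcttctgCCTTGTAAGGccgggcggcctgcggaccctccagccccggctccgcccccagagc

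The first Acta2 box began 84 bases before the RefSeq start and the second 34 bases before it. In Myl9 the exact box began 161 bases and the changed one 99 bases before the start. For the other 5 members, no match says only that these letters are not in the window searched.

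The authors deposited whole-number read counts, and totals ran from 25612646 to 40255851 per mouse. Levels below are TMM-scaled CPM, the counts brought to 1 common library size, and 3 counts corresponded to 0.0745 to 0.117 CPM before scaling. Dnm1l was at 73.5 ± 15.1 CPM in the 3 normal WT mice and at 58.9 ± 3.30 CPM in the 4 normal KO mice (mean ± SD), a difference that missed the test across all genes (log2 fold change −0.32, edgeR FDR = 0.974). After ischemia it was at 75.0 ± 10.3 CPM in WT and 69.4 ± 6.88 CPM in KO mice, a log2 fold change of −0.11 (edgeR FDR = 0.872), so lower Dnm1l RNA in KO mice did not pass the test in either condition. Replicate 3 of the normal WT mice was sequenced on lane 1 and the other 13 mice on lane 8, so lane and mouse cannot be told apart. Each sample is read here as 1 mouse, since the study counts individuals for each group, although the labels do not spell this out. The p-values measure the spread between these samples. Brown adipocyte genes differed widely between arteries and cardiac muscle genes were high in 3 KO mice, and both are given beside the members they touch.

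Acta2 was the most abundant RNA per kilobase of exon among the 15996 tested genes with a GENCODE length, at 5075 ± 2101 CPM per kb (mean of the 4 group means, SD over 14 mice). Myl9 came second of all genes at 2970 ± 890.0, Myh11 eleventh at 1014 ± 365, and Cnn1 stood at 476 ± 177. Lmod1 at 257 ± 105 and Smtn at 226 ± 66.0 CPM per kb differed by less than their spread, as did Mylk at 108 ± 35.3 and Actg2 at 103 ± 47.4. Des, at 28.9 ± 20.6 CPM per kb, was rank 1449. These ranks show the labelled tissue as rich in smooth muscle RNA, and together the 10 genes took 0.797% to 4.65% of a mouse's counts. Acta2 and Actg2 share 84.4% of their coding bases, so reads could be split between them in a way that is not known. Smtn shares 16.3% of its exon bases with Gm11946 on the opposite strand, and without the strand setting those reads cannot be told apart.

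Tagln was the exception, with 19 to 196 counts in a mouse and 1.47 ± 0.668 CPM per kb, rank 10421. Transgelin is usually among the most abundant smooth muscle proteins. Tagln lies on the minus strand at chr9:45929619-45936058 (GENCODE M21, GRCm38). Of its 1988 exon bases, 87.2% lie within the span, introns included, that RefSeq gives to Pcsk7, a neighbour on the opposite strand. Only 5.4% are shared with exons that GENCODE gives to Pcsk7. With exons of Gm48529, an antisense gene that is not in the table, 62.4% are shared. Pcsk7 received 1721 to 5880 counts per mouse. Whether reads of Tagln were set aside or given to a neighbour during counting was not tested, and its values are given here as listed.

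Mice differed within a group. Acta2 spanned 3.86-fold in normal WT, 2.65-fold in normal KO, 1.88-fold in ischemic WT and 1.74-fold in ischemic KO mice. Over all members and groups this range was 1.20-fold, for Tagln in ischemic WT, to 8.57-fold, for Tagln in normal WT. Over all 14 mice Acta2 ran from 3357 to 18598 CPM. The SD within groups was 0.46 to 0.85 on the log2 scale for the members, beside a median of 0.56 over all tested genes. Of the 500 genes nearest to a member in level, 46.8% (for Smtn) to 82.4% (for Actg2 and Des) had a smaller SD, and 69.6% for Acta2. For a single member to pass the test, its groups therefore had to stand well apart.

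**Figure D1:**
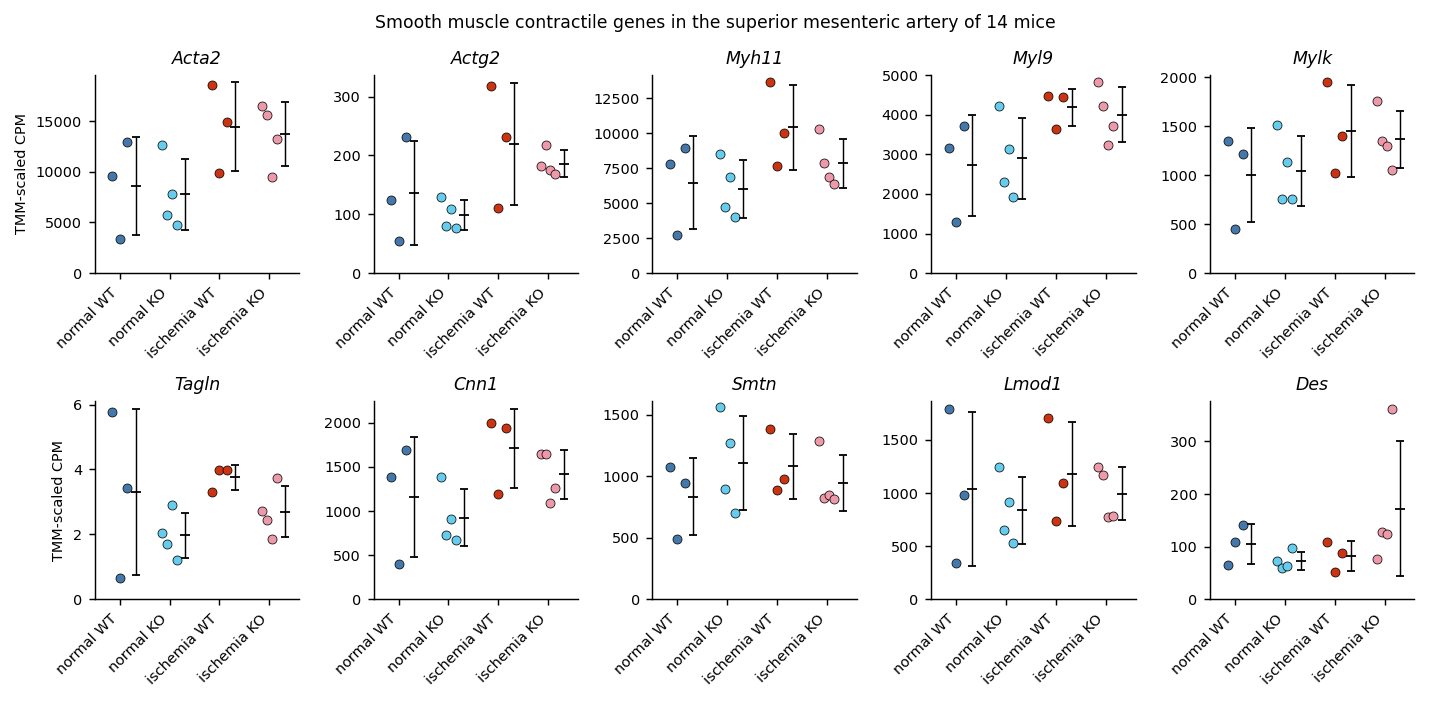
Level of each of the 10 contractile genes in TMM-scaled CPM (vertical axes, linear, from 0) in the 4 groups, 1 point per mouse, with the mean and SD of each group beside its points. Most ischemic mice sit above most normal mice for Acta2 and Actg2 but the groups overlap, Tagln reaches at most 5.78 CPM, and a single ischemic KO mouse is far above the rest for Des at 361 CPM.

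After ischemia, taken over both genotypes, all 10 genes had a higher mean but none passed the test. The median log2 fold change of the members was 0.50, beside −0.05 for all genes, of which 45.8% were positive. A gene was called where its FDR was below 0.05 and its change exceeded 1.5-fold. By that rule 0 of 10 members were called, where 0.927% of all genes were. At an unadjusted p under 0.05 there were 2 of 10, Acta2 and Actg2, close to the background share of 18.1%. Blocking on replicate number made it 6 of 10, beside 20.4% of all genes in that fit. Whether these numbers pair the mice is not settled, since the deviations of same-numbered mice correlated at −0.15 to 0.22 and 8 of 13 pairs exceeded 0.1. DESeq2 called 0 of 10, as did the block. In bulk tissue, fewer cells of a type and less RNA per cell cannot be told apart. Adipocyte genes (Adipoq, Plin1, Lep, Retn, Cfd and Cidec, all 6 with counts) moved the other way, with a median log2 fold change of −1.14 and 4 of 6 lower at an unadjusted p under 0.05. Fat was not alone in this. Medians were also below 0 for lymphocyte (−1.87), brown adipocyte (−0.93), macrophage (−0.88), endothelial (−0.48), nerve (−0.43), mesothelium (−0.42) and fibroblast genes (−0.32). They were above 0 for cardiac muscle (3.36), pancreatic acinar (0.66), skeletal muscle (0.32) and gut epithelium genes (0.064). The part of these cells in the members' values was not tested.

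The actins had the highest values. Acta2 had a low of 3357, a median of 7854 and a high of 12943 CPM in the 7 normal mice, and 9486, 14909 and 18598 CPM in the 7 ischemic mice. All 7 ischemic mice were above the normal median and 5 were above the highest normal mouse, while the other 2 overlapped the normal range. Its log2 fold change was 0.78 (SE 0.33, 95% interval 0.07 to 1.49, a 1.72-fold higher level), with an edgeR p of 0.0330 and an FDR of 0.240. Actg2, the enteric form of the actin (chr6:83512905-83536265, minus strand), had a low of 54.6, a median of 108 and a high of 231 CPM in normal mice and 110, 182 and 317 CPM in ischemic mice. Its log2 fold change was 0.80 (SE 0.29, 95% interval 0.17 to 1.43), with an edgeR p of 0.0169 and an FDR of 0.190, and 2 of 7 ischemic mice were above every normal mouse.

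For the motor and its kinase the log2 fold changes were 0.53 for Myh11 (95% interval −0.10 to 1.16), 0.54 for Myl9 (−0.01 to 1.10) and 0.46 for Mylk (−0.11 to 1.04), with edgeR FDRs of 0.282 to 0.374. Myl9 had all 7 ischemic mice above the normal median, at 3228 to 4837 CPM against 1278 to 4217 CPM in normal mice. Among the actin-binding proteins, Cnn1 was closest to the actins, with a log2 fold change of 0.59 (95% interval −0.05 to 1.22). Lmod1 was at 0.21 (−0.50 to 0.93) and Tagln at 0.32 (−0.51 to 1.15). Smtn differed least, with a log2 fold change of 0.07 (−0.44 to 0.58), and its ischemic mice, at 818 to 1382 CPM, lay within the normal range of 487 to 1559 CPM. Des was at 0.44 (−0.24 to 1.13). The intervals hold a rise of more than 1.5-fold in every member except Smtn and leave out a fall of that size in all 10.

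The size of these differences rested partly on replicate 2 of the normal WT mice, which was lowest of the 14 for 9 of the 10 members. Without it the log2 fold changes became 0.60 for Acta2, 0.62 for Actg2, 0.29 for Mylk, 0.08 for Tagln, 0.01 for Lmod1 and −0.06 for Smtn. Leaving out the lane 1 library raised Acta2 to 0.995 and Actg2 to 1.11, with a smallest member FDR of 0.0712 for Actg2 in edgeR's test. The number of members at an unadjusted p under 0.05 became 5 without the lane 1 library (20.4% of all genes in the same fit), 4 without replicate 1 of the normal KO mice (19.7%) and 0 without replicate 1 of the ischemic WT mice (15.2%). It was 1, beside 13.96% to 17.1% of all genes, without replicate 2, 3 or 4 of the normal KO mice, replicate 3 of the ischemic WT mice or replicate 1 or 2 of the ischemic KO mice. The number called stayed at 0 in each of these fits.

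**Figure D2:**
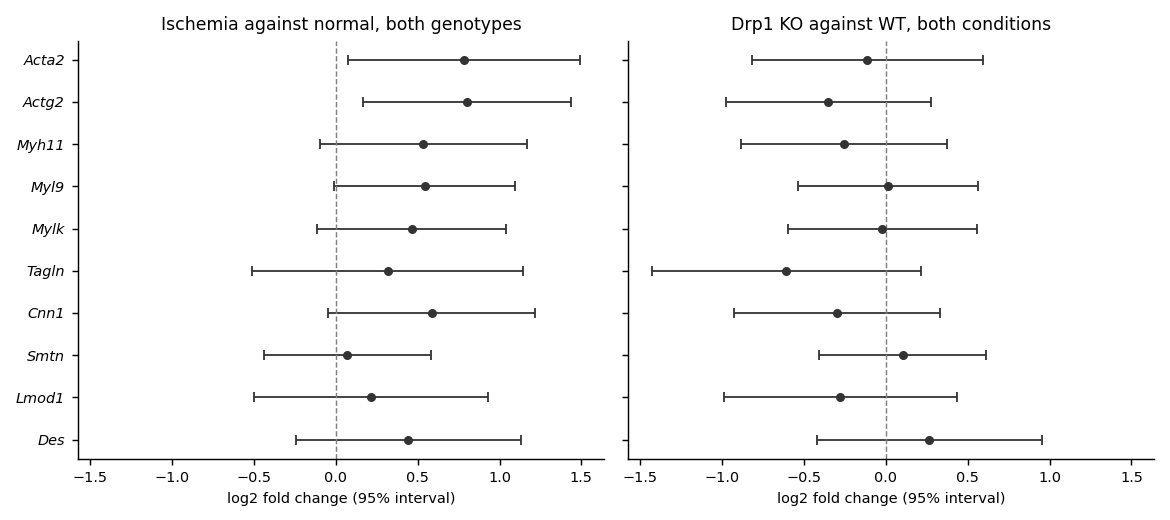
Log2 fold change (horizontal axis) of each contractile gene with its 95% interval from edgeR's fit of all 14 mice, for ischemia against normal conditions over both genotypes (left) and for Drp1 KO against WT over both conditions (right). On the left all 10 points are above 0 and the intervals of Acta2 and Actg2 leave out 0, and on the right all 10 intervals hold 0.

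Within WT mice, ischemia gave 0 of 10 members called, beside 0.0113% of all genes, and 0 of 10 at an unadjusted p under 0.05, beside 9.57%. Acta2 was at 9559, 3357 and 12943 CPM in the 3 normal WT mice and at 18598, 9876 and 14909 CPM in the 3 ischemic WT mice. The lowest ischemic mouse stood below the highest normal one, so the groups overlapped. The log2 fold change was 0.75 for Acta2 (95% interval −0.33 to 1.82), 0.69 for Actg2, 0.69 for Myh11 and 0.37 for Smtn, and −0.35 for Des. Replicate numbers of the labels deviated together in this comparison, and with the replicate number as a block Myh11 and Mylk reached an unadjusted p under 0.05, beside 11.9% of all genes, still with 0 of 10 called and with 0 of all genes called instead of 2.

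Within KO mice the same comparison gave 0 of 10 called, beside 0.294% of all genes, and 2 of 10 at an unadjusted p under 0.05, Actg2 and Des, beside 13.2%. Actg2 was at 130, 79.4, 108 and 77.4 CPM in the 4 normal KO mice and at 182, 218, 176 and 168 CPM in the 4 ischemic KO mice. These groups did not overlap, though how many of all genes separated as fully was not counted. Actg2 had a log2 fold change of 0.91, a standard error of 0.39, an edgeR p of 0.0335 and an FDR of 0.325. Acta2 was at 12694, 5747, 7854 and 4785 CPM in normal KO mice and at 16515, 15609, 9486 and 13289 CPM in ischemic KO mice, with a log2 fold change of 0.82 (95% interval −0.11 to 1.75). Here 1 normal mouse stood above 1 ischemic mouse. Myh11 was at 0.38 and Smtn at −0.23 on the log2 scale. Fitted with only the 2 KO groups, 4 of 10 members (Acta2, Actg2, Cnn1 and Des) reached an unadjusted p under 0.05, beside 18.7% of all genes, with log2 fold changes of 0.84, 0.94, 0.63 and 1.27. In a separate fit of all groups without the 3 mice rich in cardiac genes the count was 0 of 10, beside 8.22% of all genes, and these values were 0.88, 0.92, 0.71 and 0.66.

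Drp1 KO and WT arteries did not differ in any of the 10 genes past the test. Under normal conditions 0 of 10 members were called, beside 0% of all genes, and 0 of 10 had an unadjusted p under 0.05, beside 5.25%. Acta2 averaged 8619 ± 4862 CPM in the 3 WT mice and 7770 ± 3524 CPM in the 4 KO mice (mean ± SD), and Myh11 averaged 6483 ± 3304 and 6042 ± 2069 CPM. Fold changes of the members ran from −0.74 for Tagln to 0.41 for Smtn on the log2 scale, with a median of −0.23. The 95% interval for Smtn was −0.32 to 1.13, so neither no change nor a doubling was left out. Without replicate 2 of the normal WT mice, Actg2, Tagln and Cnn1 reached an unadjusted p under 0.05, beside 11.4% of all genes in that fit, with Actg2 at −0.85, whereas without the lane 1 library Actg2 turned to 0.15.

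After ischemia, KO against WT gave 0 of 10 members called, beside 0% of all genes, and 1 of 10 at an unadjusted p under 0.05, Des, beside 6.48%. Acta2 averaged 14461 ± 4378 CPM in the 3 ischemic WT mice and 13725 ± 3136 CPM in the 4 ischemic KO mice (mean ± SD). The mean was lower in KO mice for 9 of 10 members, with a median log2 fold change of −0.22, beside −0.03 for all genes, of which 47.1% were positive. This direction rested partly on replicate 1 of the ischemic WT mice, the highest of the 14 for 5 members. Without it the value turned to 0.15 for Acta2, 0.12 for Actg2, 0.18 for Mylk, 0.12 for Lmod1 and 0.016 for Smtn. Myh11 stayed at −0.17 and Cnn1 at −0.15. The members also moved together from mouse to mouse, so they are not separate observations. Over both conditions 0 of 10 were called, beside 0% of all genes, and 0 of 10 had an unadjusted p under 0.05, beside 7.77%. Tagln had the lowest value there, −0.61 (95% interval −1.43 to 0.21), on few counts. Without replicate 2 of the normal WT mice, Actg2, Tagln and Cnn1 again reached an unadjusted p under 0.05, beside 18.5% of all genes in that fit, with 0 of 10 called.

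Whether ischemia acted differently in the 2 genotypes was tested as an interaction, and 0 of 10 members were called, beside 0% of all genes. At an unadjusted p under 0.05 there was 1 of 10, Des, beside 4.32%. Des was at 65.9, 109 and 141 CPM in the normal WT mice and at 108, 52.3 and 88.2 CPM in the ischemic WT mice. In KO mice it was at 73.0, 60.0, 62.6 and 98.0 CPM under normal conditions and at 76.8, 128, 124 and 361 CPM after ischemia. The mouse at 361 CPM, replicate 4, was above all others, and the remaining ischemic KO mice lay within the range of normal WT mice. The interaction for Des was 1.58 on the log2 scale (SE 0.64), with an edgeR p of 0.0276 and an FDR of 0.946. In KO mice the log2 fold change of Des was 1.23 (standard error 0.42, FDR = 0.234), and between ischemic KO and WT mice it was 1.06 (standard error 0.46, FDR = 0.715). Smtn went the other way, with an interaction of −0.60 (95% interval −1.62 to 0.41).

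The 1 mouse with very high Des was also the one with the most cardiac muscle RNA. Among the other mice, Des and the cardiac sum followed no single order. All 5 genes of that list (Myh6, Tnnt2, Tnni3, Nppa and Myl7) had counts, and their summed level was 7.10 to 15.0 CPM in normal WT, 6.66 to 327 CPM in normal KO, 7.15 to 55.9 CPM in ischemic WT and 7.06 to 5387 CPM in ischemic KO mice. Myh6, the heart's myosin heavy chain, was at 3529 CPM in replicate 4 of the ischemic KO mice, at 518 CPM in replicate 3 and at 203 CPM in replicate 4 of the normal KO mice, and at 0.304 to 25.4 CPM in the other 11. Actc1, the cardiac actin, had 55589 counts in the first of these. Skeletal muscle genes also peaked there, at a sum of 266 CPM. Without that mouse the log2 fold change of Des fell to 0.58 in KO mice, 0.40 between ischemic KO and WT mice and 0.93 for the interaction. Without all 3 mice these were 0.66, 0.31 and 0.999, and none had an unadjusted p under 0.05. None of the other 9 members had that mouse among its 3 highest. Elsewhere Des was at 124 CPM in replicate 3 of the ischemic KO mice with a cardiac sum of 796 CPM. It was at 108 CPM in replicate 1 of the ischemic WT mice with a sum of 55.9 CPM. In replicate 4 of the normal KO mice it was at 98.0 CPM, the highest of that group, with a sum of 327 CPM. But Des was at 141 CPM in replicate 3 of the normal WT mice with a sum of 7.10 CPM. In replicate 2 of the ischemic KO mice it was at 128 CPM with a sum of 7.06 CPM. The part of cardiac RNA in Des was not tested.

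**Figure D3:**
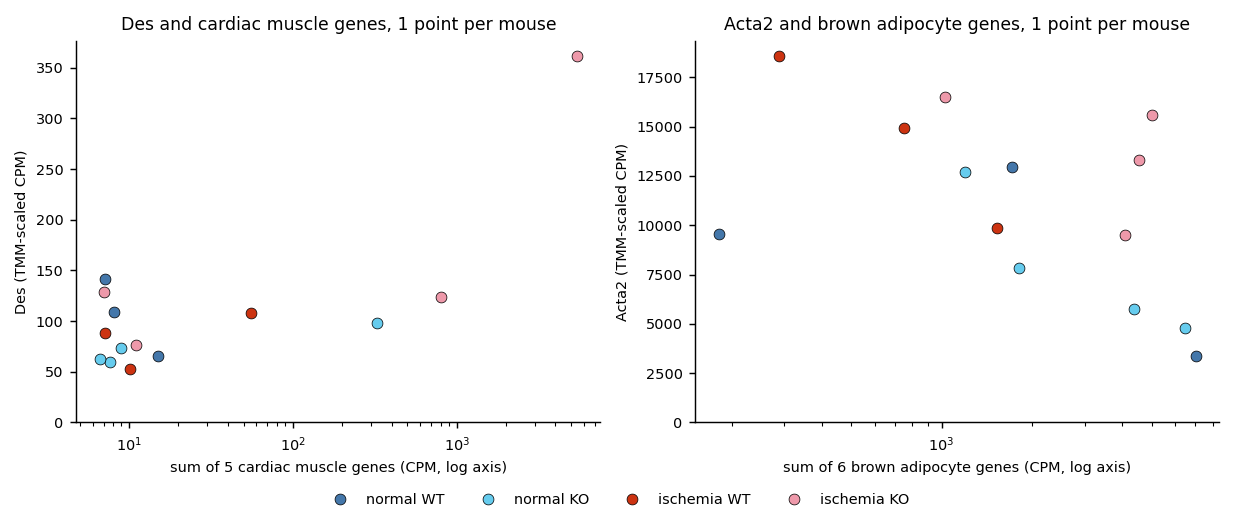
Left, Des in TMM-scaled CPM (linear axis from 0) against the sum of 5 cardiac muscle genes in CPM (log axis), and right, Acta2 in TMM-scaled CPM (linear axis from 0) against the sum of 6 brown adipocyte genes in CPM (log axis), with 1 point per mouse coloured by group. The mouse with 361 CPM of Des has a cardiac sum of 5387 CPM, and the 3 normal mice with the least Acta2 have brown adipocyte sums of 4364 to 7005 CPM.

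Of the 7 normal mice, the 3 with the most brown adipocyte RNA had the least Acta2. All 6 genes of that list (Ucp1, Cidea, Dio2, Elovl3, Cox8b and Otop1) had counts, and none of them was called in any comparison, nor was any gene of the 12 lists of other cell types. Their sum was 182 to 7005 CPM in normal WT, 1194 to 6459 CPM in normal KO, 288 to 1528 CPM in ischemic WT and 1028 to 5035 CPM in ischemic KO mice. Ucp1, the heat-producing channel of brown fat, was at 3948 CPM in replicate 2 of the normal WT mice, where Acta2 was at its lowest, and at 40.2 CPM in replicate 1, where Acta2 was at 9559 CPM. Replicates 2 and 4 of the normal KO mice had brown adipocyte sums of 4364 and 6459 CPM and were among the 4 lowest mice for 9 of the 10 members each. Ischemic KO mice went apart from this order, since replicate 2 had a sum of 5035 CPM with Acta2 at 15609 CPM. The part of adipose tissue in the levels of the members was not tested.

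All members except Des went up and down together from mouse to mouse, as a description over 14 libraries that share the scaling. Over the 36 pairs that leave out Des, Pearson's r of log2 CPM ran from 0.52 to 0.97 with a median of 0.84. Acta2 with Myl9 gave 0.97, Acta2 with Cnn1 0.97 and Myh11 with Mylk 0.96, while Smtn with Actg2 gave the lowest. Des ran from −0.33 to 0.34 with the others. The gene most like Des was Popdc2, a membrane protein of striated muscle, at r = 0.92. Outside the set, the 10 genes most like the mean of the members were Tpm2, Pdlim3, Actn1, Myl6, Pbxip1, Dstn, Lgalsl, Mcam, Rftn2 and Npnt, with r of 0.97 to 0.98. Tpm2 (tropomyosin), Pdlim3, Actn1 (alpha-actinin) and Myl6 (the essential light chain) were also on the list of contractile partners. With group means taken out 4 of these 10 stayed among the 10 most alike, and without the lane 1 library 8 did. The single closest genes were Coro1c for Acta2, Eml2 for Actg2, Inpp4a for Myh11, Myl6 for Myl9, Actn1 for Mylk, Mdga1 for Tagln, Pdlim3 for Cnn1, Hmgn3 for Smtn and Klhl23 for Lmod1.

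Set against Acta2 in the same mouse, a ratio that does not depend on the scaling, 8 of the other 9 members had a lower median after ischemia, and Actg2 did not. Only Actg2 (0.80) had a higher log2 fold change over both genotypes than Acta2 (0.78). Lower ratios of the other members therefore largely follow from the choice of Acta2. These ratios were picked after their values were seen and carry no test, and the share of all genes with such ratios was not counted. Smtn was 7.27% to 16.2% of Acta2 in normal mice, with a median of 14.5%, and 5.26% to 8.99% in ischemic mice, with a median of 7.43%. In 6 of 7 normal mice it was above every ischemic mouse, the exception being the lane 1 library at 7.27%. Lmod1 was 7.61% to 18.8% of Acta2 in normal and 5.93% to 9.17% in ischemic mice, again with 6 of 7 normal mice above every ischemic mouse and the same exception. Myh11 was 67.2% to 87.9% in normal and 47.8% to 77.4% in ischemic mice, with 5 of 7 above. Actg2, at 1.02% to 1.78% and 1.10% to 1.85%, overlapped. The ischemic median was 0.512 of the normal one for Smtn, 0.566 for Des, 0.671 for Lmod1, 0.743 for Tagln, 0.760 for Mylk, 0.769 for Myl9, 0.824 for Myh11, 0.850 for Cnn1 and 1.01 for Actg2. For Des, Tagln, Mylk, Myl9 and Cnn1, 1 to 4 of 7 normal mice were above every ischemic mouse. A ratio shows unequal change and not which gene changed.

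**Figure D4:**
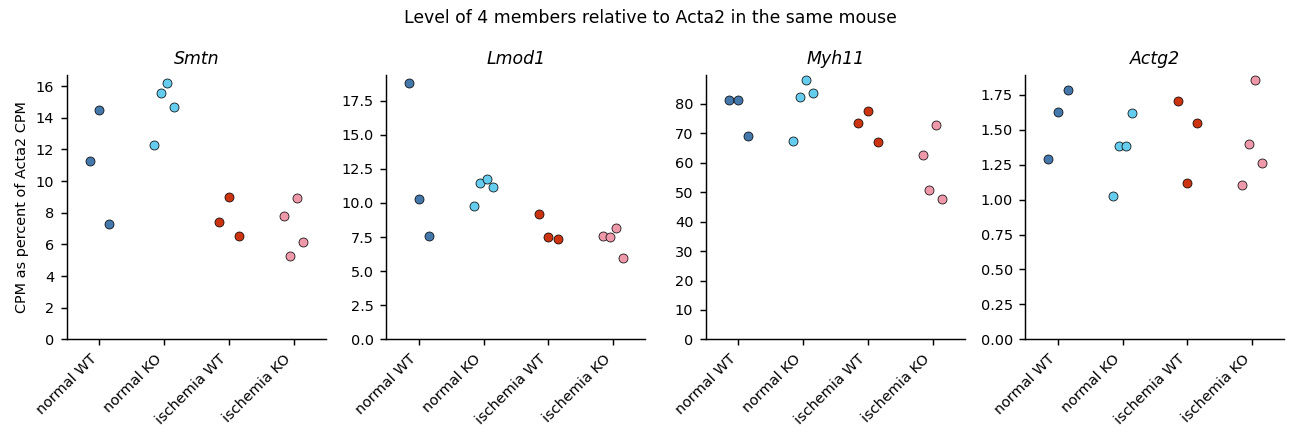
Level of Smtn, Lmod1, Myh11 and Actg2 as a percent of Acta2 in the same mouse (vertical axes, linear, from 0), 1 point per mouse, in the 4 groups. For Smtn and Lmod1 6 of 7 normal points lie above the highest ischemic point, which is at 8.99% and 9.17%, and for Actg2 the groups overlap.

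When libraries were scaled by the 22 contractile partner genes in place of all genes, a setting added after the data were seen, the median of all genes shifted to −0.67 for ischemia over both genotypes. On that scale Acta2 was at 0.36 (edgeR FDR = 0.107) and Smtn at −0.42 (FDR = 0.0871), the median of the members was 0.045, and 0 of 10 members were called. Tpm2, Pdlim3, Actn1 and Myl6, which are among the genes most like the members, are also among the partners. A change that members and partners share is therefore taken out by this scaling, and the 0 calls cannot speak to it.

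The other genes of the contractile pathway gave 0 calls in either direction in all 7 comparisons, beside 0% to 0.927% of all genes. For ischemia over both genotypes, 45.8% of all genes were positive and 18.1% had an unadjusted p under 0.05, the shares to set beside each list here. The 22 contractile partners hold tropomyosins, alpha-actinin and the dense plaque proteins. Of them 19 were higher after ischemia over both genotypes, with a median log2 fold change of 0.51, and 7 had an unadjusted p under 0.05, all higher. Cnn3, a calponin of non-muscle and muscle cells, was at 0.70, Tpm1 at 0.73, Vcl (vinculin) at 0.69 and Itga7, a laminin receptor subunit, at 0.57, with edgeR FDRs of 0.204 to 0.215. Tpm1 is also a heart gene and was highest, at 3086 CPM, in the mouse with the most Myh6. All 15 genes that set light chain phosphorylation were positive, with a median of 0.29, and 1 had an unadjusted p under 0.05, Calm2 at 0.27 (FDR = 0.276). Of 9 genes of dedifferentiated smooth muscle 8 were positive, with a median of 0.32, and Tpm4 at 0.40 and Tnc at 0.86 had an unadjusted p under 0.05. Between KO and WT mice over both conditions, 1 of the 22 partners was positive, with a median of −0.25, where all genes had a median of −0.0013 and 49.8% positive, and Synm (synemin, which binds desmin) was at −0.58 with an edgeR FDR of 0.533.

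Of the 12 listed symbols for serum response factor and its co-factors, 10 were in the table. The symbols not found, Mrtfa and Mrtfb, are other names of Mkl1 and Mkl2, which were found, so no listed gene was missing. Srf itself was at 0.58 after ischemia over both genotypes (standard error 0.21, edgeR FDR = 0.188), Fhl2, a co-factor that the heart also makes, at 1.39 (FDR = 0.161), and Mkl2 at −0.32 (FDR = 0.216). Fhl2 was at 2.76 to 14.4 CPM in 13 mice and at 79.8 CPM in the mouse with the most Myh6. Myocd, the gene of myocardin, averaged 232 ± 177 CPM in normal WT (SD, n = 3), 110 ± 33.2 CPM in normal KO (SD, n = 4), 396 ± 151 CPM in ischemic WT (SD, n = 3) and 150.0 ± 28.6 CPM in ischemic KO mice (SD, n = 4). After ischemia every KO mouse, at 124 to 185 CPM, was below every WT mouse, at 261 to 559 CPM. How many of all genes separated as fully was not counted, and under normal conditions a WT mouse at 35.4 CPM was the lowest of all. Between ischemic KO and WT mice the log2 fold change of Myocd was −1.40, with a standard error of 0.54 and an FDR of 0.715 in edgeR's test. Rock1, a kinase that restrains the light chain phosphatase, was at −1.29 (standard error 0.46) with the same FDR. In the same comparison the members ran from −0.48 for Tagln to 1.06 for Des.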

How the data were processed

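Total RNA of the SMA was extracted with Trizol and columns and sequenced, and the authors deposited counts of reads per gene symbol and mouse as 1 table, not normalized. Per the labels' processing notes, HISAT2 2.0.4 and mm10 were used, while the counting program, annotation and strand setting are not given in the sources used here. In R 4.3.3, edgeR 4.0.16 (filterByExpr, TMM, quasi-likelihood F-test, 1 fit of 4 groups and 14 mice) tested 17693 genes, with Benjamini-Hochberg FDR over all of them and the study's limits (FDR under 0.05, fold change over 1.5) in place of its RVM F-test. Likeness is Pearson's r of log2 CPM (prior count 2) over 14 mice with the mean standardized value of the members. Exon lengths and overlaps come from GENCODE M21, upstream sequences from RefSeq. Samples follow the labels. Mice of a group differed by more than sampling noise in all 18 pairs (chi-square per degree of freedom at least 64.5). Same-numbered mice are read here as different animals, since the study counts separate individuals for each group, although the labels do not spell this out. Correlations of their deviations were 0.12 to 0.19 in the WT ischemia comparison, where all 3 pairs exceeded 0.1. Over all 13 pairs they ran from −0.15 to 0.22, and 8 exceeded 0.1. Alternatives were DESeq2 1.42.0, other scalings and filters, no fold limit, the replicate block and each mouse left out. The steps were tested on simulated data. Named were all members, the 10 genes and the single gene most like them, and up to 4 genes per pathway list by smallest p. Members, lists and named-gene rule were chosen with earlier results of these data known.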

Additional observations from a re-analysis of the deposited data

Results flagged for a closer look

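Smtn stood at 1286 CPM in replicate 1 of the ischemic KO mice, and the other 3 ischemic KO mice lay between 818 and 847 CPM. The gap to the nearest mouse was 0.937 of the group's whole range, above Dixon's 95% critical value for 4 samples. It was the 1 value so marked among the 20 groups of 4 mice examined (10 members in each KO group), where chance marks about 1 in 20.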

How the results depend on the processing

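The number of members called was 0 in each of the 7 comparisons under DESeq2, DESeq2 size factors in edgeR, upper-quartile scaling, both other filters, no limit on the fold change, the replicate block, fits of only the groups compared (run for the 4 comparisons of 2 groups), each mouse left out and the 2 settings added after seeing the data. Of these settings, scaling by the contractile partner genes could not show a change that the members share with the partners. Counts over all genes were less stable. DESeq2 called 870 genes for ischemia over both genotypes where edgeR called 164, 606 against 52 in KO mice, 108 against 2 in WT mice, and 41, 18, 88 and 11 where edgeR called 0 (KO against WT under normal conditions, after ischemia and over both conditions, and the interaction), and no member was among them. Fitted alone, the 2 KO groups gave 267 called genes. Without the 3 mice rich in cardiac genes the count for ischemia over both genotypes was 14 and in KO mice 0, and with the partner scaling these were 105 and 0. With the replicate number as a block, members at an unadjusted p under 0.05 numbered 6 for ischemia over both genotypes (Acta2, Actg2, Myh11, Myl9, Mylk and Cnn1), beside 20.4% of all genes in the blocked fit, 2 for KO against WT without ischemia (Smtn and Des), beside 5.36%, and 0 with it, beside 6.29%, and the block changed no call of a member. Scaling by contractile partner genes turned the log2 fold change of ischemia over both genotypes to −0.42 for Smtn, −0.22 for Lmod1, −0.19 for Des and −0.030 for Tagln, that of Smtn in WT mice to −0.20 and that of Myh11 in KO mice to −0.035. With a mouse left out, Smtn over both genotypes ran from −0.064 to 0.19 and Actg2 for KO against WT without ischemia from −0.85 to 0.15. The cause was not tested. Among the members, depth was low for Tagln, at 19 to 196 counts per mouse.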
